A study of Drosophila melanogaster with 8 samples.

Results

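The CCHamides are a pair of small neuropeptides of insects, and 4 genes of the fly make up the system: CCHa1 and CCHa2 encode the peptide precursors, and CCHa1-R and CCHa2-R encode their receptors. These 4 genes were taken by gene symbol from the 17137 reference genes of each library, and all 4 passed the filter on low values that left 10111 genes for testing. They were selected on their TPM values: CCHa2 was chosen by its low level in male fru+ cells, and CCHa1 and both receptors to be set against it. The low level of CCHa2 in male fru+ cells is therefore described here and not tested.

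The precursors are cut by prohormone convertases, trimmed and amidated at the end of the peptide, and the mature peptides leave the cell from dense-core vesicles. Both receptors are G protein-coupled receptors of the family that in vertebrates binds bombesin-type peptides. In flies, CCHamide-2 is made in the gut, the fat body and the brain, and in larvae it acts through CCHa2-R on the insulin-producing cells of the brain, where it links feeding to the release of insulin-like peptides. CCHamide-1 and CCHa1-R are known from gut endocrine cells, from clock neurons and from the olfactory response of starved flies.

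RNA was sequenced from 4 populations of sorted cells of the adult central brain, male fru+, female fru+, male fru- and female fru-, with 2 libraries each. All flies were 2 to 7 days old, of the w1118 strain, and all carried UAS-mCD8-GFP, MB247-Gal80 and 1 copy of Fru-GAL4, so fru+ cells are GFP-positive cells and fru- cells are the GFP-negative cells of the same brains. Each library pools cells from many brains without their optic lobes, and 1 sorting session gave all 4 populations of a replicate, so that the replicate number marks a session. fruitless itself encodes, in males, the transcription factor FruM, and the Gal4 inserted at its P1 promoter reports transcription in both sexes, whereas the FruM protein is made in males only. MB247-Gal80 silences the reporter in Kenyon cells, the intrinsic neurons of the mushroom body, so that their fru-transcribing members lie in the fru- pools.

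The libraries held 3.16 to 4.93 Gb of aligned bases, as estimated from the deposited read depths. fru was present at 56.2 and 63.1 TPM (StringTie's transcript abundance, scaled for length and library) in male fru+ libraries and 71.6 and 61.0 TPM in female fru+ libraries, against 8.19 and 7.39 TPM in male fru- libraries and 3.75 and 15.1 TPM in female fru- libraries. The male-specific RNA roX1 was at 3452 to 5067 TPM in the male libraries and 1.71 to 7.32 TPM in the female ones. The neuronal gene nSyb was at 1466 to 2580 TPM in every library. By glial markers and fru, the female fru- replicates stood furthest apart. Their summed level of 6 glial markers was 417 and 1572 TPM, the higher value in replicate 1, and replicate 2 held the most fru transcript of the 4 fru- libraries. By the sum of 5 neuron markers, the female fru+ replicates stood furthest apart, at 2137 and 3387 TPM.

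CCHa2 lies on chromosome 3R (dm6, 13389059 to 13395197, minus strand, FBgn0038147), with 3 annotated transcripts of 4 exons that all encode a precursor of 136 amino acids. CCHa2 was low in male fru+ cells, with 63.7 and 39.1 TPM in male fru+ libraries, against 203 and 121 TPM in female fru+ libraries, 175 and 164 TPM in male fru- cells and 187 and 172 TPM in female fru- cells (replicates 1 and 2). Both male fru+ libraries lay below each of the other 6, whereas those 6 overlapped one another. Male fru+ cells averaged 51.4 ± 17.4 TPM of this transcript, against 162 ± 58.1 TPM in female fru+, 169 ± 7.40 TPM in male fru- and 179 ± 11.0 TPM in female fru- cells (SD, n = 2 each).

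**Figure D1:**
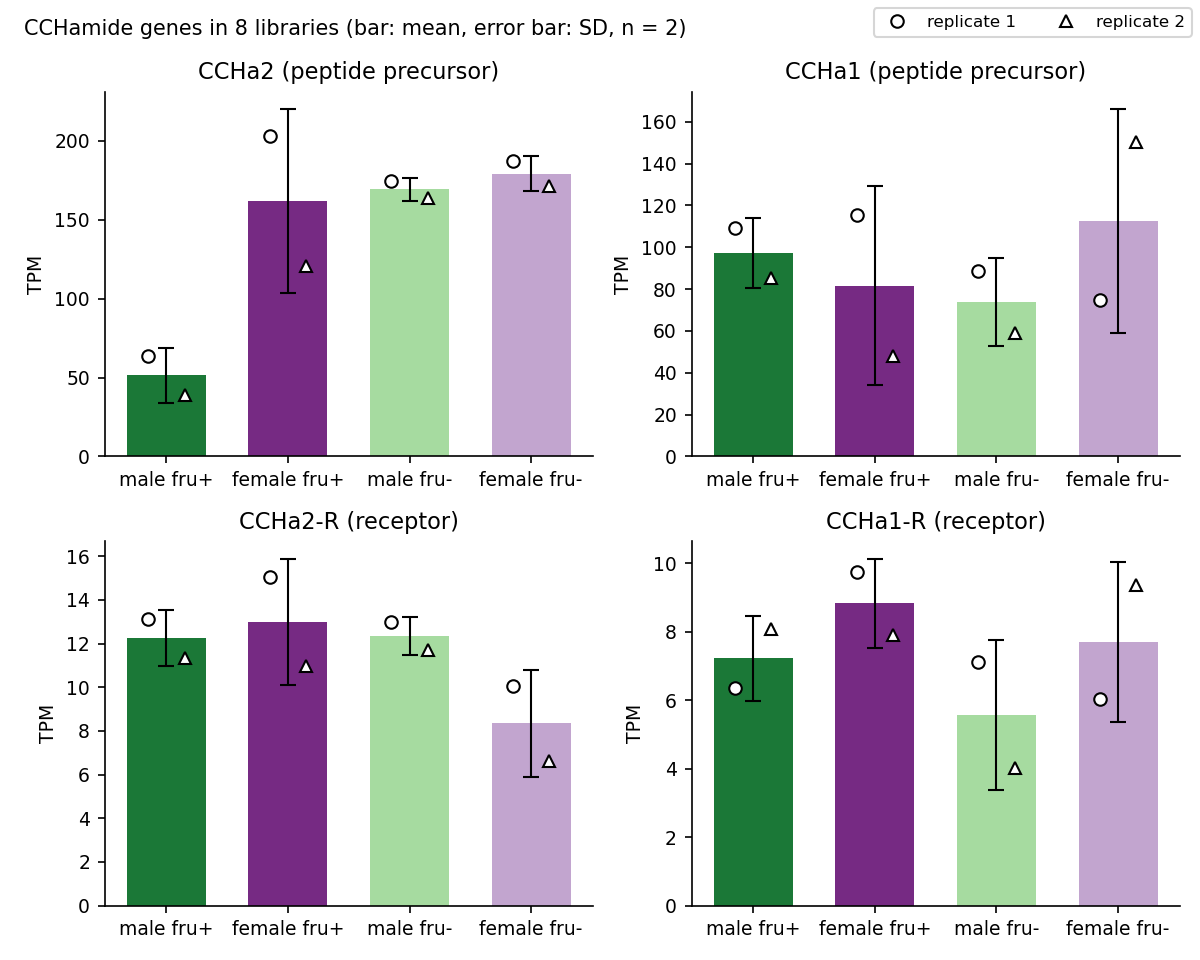
Levels of the 4 CCHamide genes in TPM (vertical axes, from 0) in male fru+, female fru+, male fru- and female fru- cells. Bars are means and error bars SD of 2 libraries, circles are replicate 1 and triangles replicate 2. CCHa2 stands at 39.1 to 63.7 TPM in male fru+ cells, below the 121 to 203 TPM of the other 6 libraries, whereas the male fru+ values of CCHa1, CCHa2-R and CCHa1-R lie within the range of the other libraries.

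Male fru+ cells thus held 30.4% of the mean CCHa2 level of male fru- cells and 31.8% of that of female fru+ cells. On the log2(TPM + 1) scale CCHa2 was lower by 1.44 in the first session and 2.04 in the second for male fru+ against male fru- cells, with a log2 fold change of -1.74 over both. Against female fru+ cells the sessions gave -1.66 and -1.60, and the log2 fold change over both was -1.63. Both of these differences chose the gene, so neither carries a p-value. Among all genes tested, 4.52% had both male fru+ libraries below all 6 others, as CCHa2 alone of the 4 genes did. Both lay above the other 6 for 3.15% of genes and for 0 of the 4. The gap between the highest male fru+ library and the lowest other library was 1.88-fold for CCHa2, and 3 of the 10111 genes (0.0297%) had a gap of at least this size. CCHa2 is itself 1 of these 3, and its gap uses the values that chose it, so this share describes it and tests nothing. The other 2 of these, named after their values were seen, were Tmtc3, which encodes a transmembrane protein with tetratricopeptide repeats, at 12.3 to 17.5 TPM in male fru+ libraries, against 36.6 to 52.1 TPM elsewhere, and CG8916, at 13.4 to 14.3 TPM in male fru+ libraries, against 27.9 to 39.5 TPM elsewhere.

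The comparisons of CCHa2 that leave out male fru+ cells do not use the level that chose it, and no difference was detected in them. Female fru+ and female fru- libraries overlapped, with a log2 fold change of -0.19 (SE 0.28, 95% interval -0.81 to 0.42, adjusted p = 0.786 by limma). The sign of this value rested on female fru+ replicate 2, since it was 0.18 without that library. Male fru- and female fru- libraries overlapped as well, with a log2 fold change of -0.08 (SE 0.28, 95% interval -0.70 to 0.53, adjusted p = 0.982). The difference between the sexes in the change with fru status, the interaction, was -1.55 on the log2 scale, and it again rests on the male fru+ level that chose the gene.

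CCHa1, the other peptide precursor, lies on the same chromosome arm (3R, 14092504 to 14096835, minus strand, FBgn0038199), with 1 annotated transcript of 4 exons and a precursor of 182 amino acids. It had 109 and 85.4 TPM in male fru+, 115.2 and 48.1 TPM in female fru+, 88.8 and 58.8 TPM in male fru- cells and 74.6 and 150.3 TPM in female fru- libraries. No group stood apart, and the female replicates differed more from each other than the groups did. The means were 97.3 ± 16.9 TPM in male fru+, 81.7 ± 47.4 TPM in female fru+, 73.8 ± 21.2 TPM in male fru- and 112 ± 53.5 TPM in female fru- cells (SD, n = 2 each).

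In limma, CCHa1 differed by 0.41 on the log2 scale between male fru+ and male fru- cells (SE 0.42, 95% interval -0.53 to 1.36, adjusted p = 0.705). In this comparison 0.514% of all genes tested were called at an adjusted p under 0.05. Between male fru+ and female fru+ cells, where 0.089% of genes were called, CCHa1 differed by 0.37 (95% interval -0.57 to 1.31, adjusted p = 1). Both intervals include 0. Between female fru+ and female fru- cells, where 0.653% of genes were called (66, or 34 with the session as a block), CCHa1 differed by -0.50 (95% interval -1.45 to 0.44, adjusted p = 0.617), and the sessions disagreed, with 0.62 in session 1 and -1.62 in session 2. The value was 0.12 without female fru+ replicate 2 and -1.12 without female fru+ replicate 1. Between male fru- and female fru- cells, where 0.109% of genes were called, it differed by -0.55 (95% interval -1.49 to 0.40, adjusted p = 0.930).

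The receptor CCHa2-R lies on chromosome 2R (6050949 to 6068680, plus strand, FBgn0033058), with 3 annotated transcripts of 7 or 8 exons and proteins of 477 to 501 amino acids. The gene had 13.1 and 11.4 TPM in male fru+, 15.05 and 11.0 TPM in female fru+, 13.0 and 11.7 TPM in male fru- cells and 10.1 and 6.62 TPM in female fru- cells. The first 3 groups overlapped, and both female fru- libraries lay below all of them, the nearest at 10.1 against 11.0 TPM. The share of all genes with both female fru- libraries lowest was not computed. The means were 12.3 ± 1.27 TPM in male fru+, 13.0 ± 2.88 TPM in female fru+, 12.4 ± 0.880 TPM in male fru- and 8.35 ± 2.45 TPM in female fru- cells (SD, n = 2 each).

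For the receptor of CCHamide-2, male fru+ cells differed from male fru- cells by -0.01 on the log2 scale (SE 0.31, 95% interval -0.70 to 0.67, adjusted p = 0.991) and from female fru+ cells by -0.07 (95% interval -0.75 to 0.61, adjusted p = 1). Its largest value among the comparisons of 2 groups was 0.59 for female fru+ against female fru- cells (SE 0.31, 95% interval -0.09 to 1.28, adjusted p = 0.403), with 0.53 in session 1 and 0.65 in session 2. With the session as a block the adjusted p was 0.269, and without female fru- replicate 2 the log2 fold change was 0.32. Libraries that do not overlap were common in this comparison, at 43.5% of all genes tested. Male fru- and female fru- libraries did not overlap either, with a log2 fold change of 0.54 (95% interval -0.15 to 1.22, adjusted p = 0.929), as was the case for 33.9% of genes.

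CCHa1-R, the receptor of CCHamide-1, lies on the same arm (2R, 17646848 to 17665068, minus strand, FBgn0050106), with 1 annotated transcript of 9 exons and a protein of 499 amino acids. It was the lowest of the 4 genes by mean level, with 6.35 and 8.10 TPM in male fru+, 9.76 and 7.91 TPM in female fru+, 7.13 and 4.02 TPM in male fru- cells and 6.04 and 9.36 TPM in female fru- cells. The groups overlapped, except that both female fru+ libraries lay above both male fru- libraries, the nearest at 7.91 against 7.13 TPM. Female fru+ and male fru- cells were not compared by a test. The means were 7.22 ± 1.24 TPM in male fru+, 8.84 ± 1.31 TPM in female fru+, 5.58 ± 2.20 TPM in male fru- and 7.70 ± 2.35 TPM in female fru- cells (SD, n = 2 each). CCHa1-R differed by 0.36 on the log2 scale between male fru+ and male fru- cells (95% interval -0.45 to 1.16, adjusted p = 0.704), by -0.26 between male fru+ and female fru+ cells (95% interval -1.07 to 0.55, adjusted p = 1), by 0.20 between female fru+ and female fru- cells (adjusted p = 0.839) and by -0.42 between male fru- and female fru- cells (adjusted p = 0.930).

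**Figure D2:**
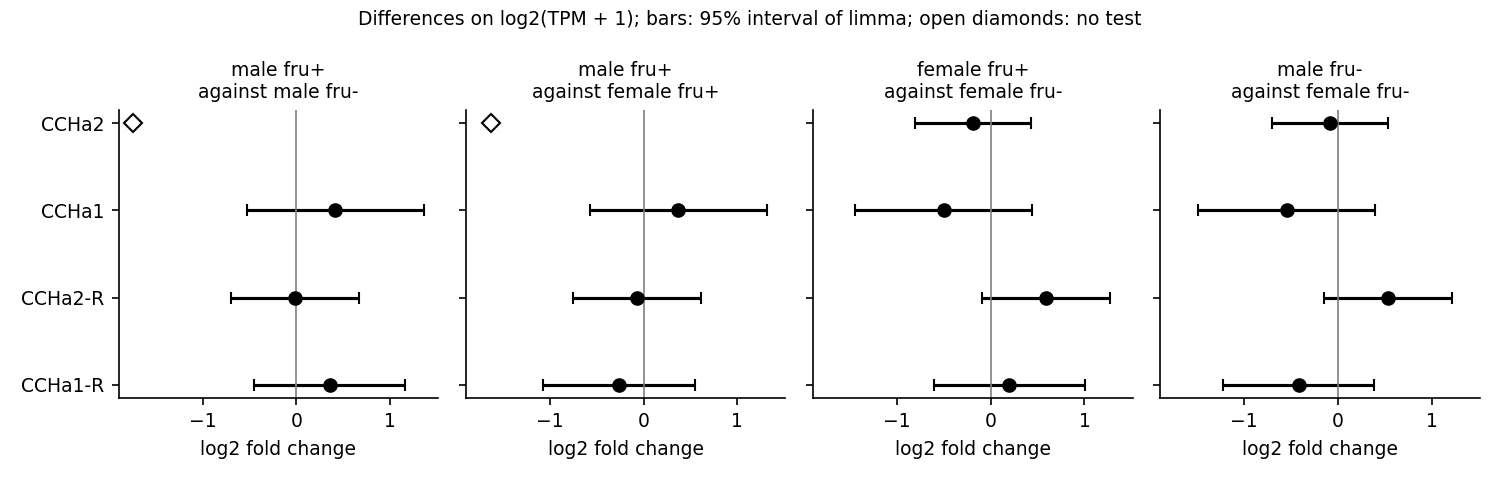
Log2 fold changes of the 4 CCHamide genes on the log2(TPM + 1) scale (horizontal axes) in 4 comparisons of 2 groups. Filled points carry the 95% interval of limma, and open diamonds mark the 2 differences on which CCHa2 was chosen, which have no test. The diamonds stand at -1.74 and -1.63, and every interval shown includes 0.

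Over the 4 genes and 7 comparisons, 23 tests did not use the male fru+ level on which CCHa2 was chosen. In limma none of these 23 passed an adjusted p of 0.05 and none had an unadjusted p under 0.05, the lowest adjusted p being 0.403. CCHa1 and both receptors were themselves taken to be set against CCHa2, with earlier results known. Their lack of a call in comparisons with male fru+ cells is therefore not independent of the selection. The 7 comparisons include the interaction, in which 0% of all genes were called, the mean of the sexes for fru+ against fru- cells, with 5.29% called, and the mean of fru+ and fru- cells for males against females, with 0.227% called. In the mean over the sexes the log2 fold changes of CCHa2-R and CCHa1-R were 0.29 and 0.28 (adjusted p = 0.454 and 0.550 by limma) and that of CCHa1 was -0.04 (adjusted p = 0.949). With the session as a block, 1 of the 23 tests had an unadjusted p under 0.05, that of CCHa2-R in female fru+ against female fru- cells. In that fit 1769 of the 10111 genes tested had an unadjusted p under 0.05 by limma, so this value does not single out CCHa2-R.

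Ratios within a library do not depend on how the library was scaled, and they set CCHa2 directly against the other 3 genes. The ratio of CCHa2 to CCHa1 was 0.583 and 0.458 in the male fru+ libraries and 1.14 to 2.79 in the other 6, so that CCHa1 was the more abundant precursor in male fru+ cells and CCHa2 in the rest. CCHa2 exceeded CCHa2-R 3.44- to 4.84-fold in male fru+ libraries, against 11.0- to 25.9-fold elsewhere. It exceeded CCHa1-R 4.83- to 10.03-fold in male fru+ libraries, against 15.3- to 40.8-fold elsewhere. In contrast, the ratio of CCHa1 to its own receptor overlapped, at 10.5 to 17.2 in male fru+ libraries and 6.08 to 16.1 in the others. All 3 ratios with CCHa2 use the level that chose it and are given as a description.

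**Figure D3:**
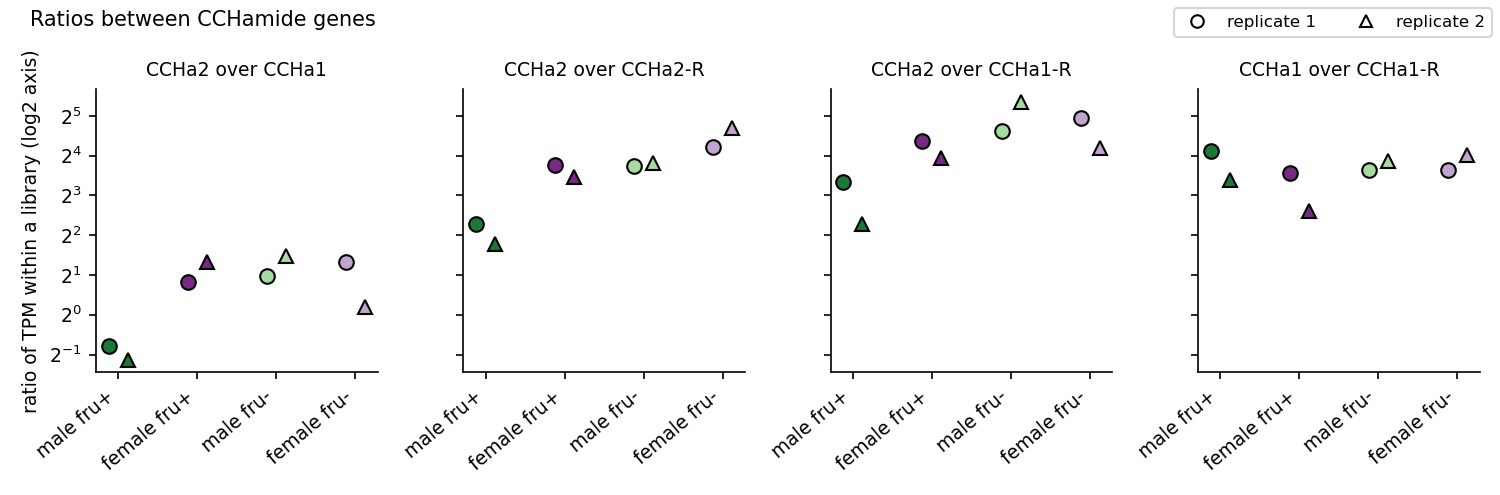
Ratios of TPM between CCHamide genes within each library (vertical axis, log2 scale) in male fru+, female fru+, male fru- and female fru- cells; circles are replicate 1 and triangles replicate 2. In the first 3 panels both male fru+ libraries lie below the other 6 (0.458 to 0.583 against 1.14 to 2.79 for CCHa2 over CCHa1), and in the last panel, CCHa1 over CCHa1-R, they overlap them.

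Among 49 neuropeptide precursor genes, ordered by mean TPM within a group, CCHa2 ranked 29 in male fru+ cells, 18 in female fru+ cells, 10 in male fru- cells and 13 in female fru- cells. CCHa1 ranked 24, 28, 18 and 16 in the same groups. The summed precursor level was 10647 and 13403 TPM in male fru+ and 10532 to 15304 TPM in female fru+ libraries, against 5557 to 7343 TPM in the fru- libraries. CCHa2 made up 0.598% and 0.292% of that sum in male fru+ libraries and 1.93% and 0.789% in female fru+ libraries, against 2.34% to 3.14% in the fru- libraries. Its share was thus lower in female fru+ than in female fru- libraries too, although its own level overlapped between them. Among 40 neuropeptide receptor genes CCHa2-R ranked 15 to 25 and CCHa1-R 24 to 28 over the 4 groups.

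The precursor genes other than CCHa1 and CCHa2 often moved with fru status. Of the 40 tested, 10 were higher and 0 lower in male fru+ than in male fru- cells, beside 0.514% of all genes called in either direction, with a median log2 fold change of 1.05 beside -0.14 over all genes tested. This count leaned on every library compared: it was 4 without male fru+ replicate 1, 2 without male fru+ replicate 2, 4 without male fru- replicate 1 and 2 without male fru- replicate 2. In female fru+ against female fru- cells 8 were higher and 3 lower, beside 0.653% of all genes called (median 0.97, beside -0.11). There 5 were higher with the session as a block, 2 without female fru+ replicate 1, 1 without female fru+ replicate 2 and 5 without any 1 of the 4 male libraries; 1 was lower without female fru+ replicate 1 and 0 without female fru+ replicate 2. The smallest p in both belonged to Trissin, the precursor of a cysteine-rich peptide, with 243 and 268 TPM in male fru+ and 234 and 617 TPM in female fru+ cells, against 0.455 and 0.244 TPM in male fru- and 29.1 and 26.9 TPM in female fru- cells. When male fru+ was compared with female fru+, 0 of the 40 were called by limma, beside 0.089% of all genes, and 6 had an unadjusted p under 0.05, beside 4.24% of all genes, and the smallest p was that of Tk, the tachykinin precursor, with 175 and 177 TPM in male fru+ and 110.4 and 80.0 TPM in female fru+ libraries (log2 fold change 0.90, SE 0.22, adjusted p = 0.443 by limma).

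The other receptor, processing and signalling genes are read against the background of few calls in these data. Of 37 other receptor genes tested, 0 were called by limma in any of the 7 comparisons, with 1 to 4 at an unadjusted p under 0.05 in each. Over all genes tested, 0% to 0.653% were called in 6 of the comparisons and 5.29% in the mean over the sexes, and 2.34% to 23.5% had an unadjusted p under 0.05, so that these receptor counts single out nothing about the list. The same held for 10 genes of peptide processing and release, such as the convertase helper 7B2 and the amidating enzyme Phm, with 0 to 4 at an unadjusted p under 0.05. Of 6 genes of Gq signalling, the G protein pathway that raises intracellular calcium, only Pkc53E was called, and only in the mean over the sexes, where it was lower in fru+ cells, with a log2 fold change of -0.63 (SE 0.14, adjusted p = 0.0348 by limma). This call was lost in 10 of 16 alternatives, with an adjusted p of up to 0.125, and with 1 library left out it held only without female fru+ replicate 1 or female fru- replicate 1. Pkc53E, a protein kinase C, had 109 and 96.1 TPM in male fru+ and 112 and 82.0 TPM in female fru+ cells, against 183 and 158 TPM in male fru- and 129 and 149 TPM in female fru- cells.

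The insulin-like peptide genes Ilp2, Ilp3 and Ilp5, which mark the insulin-producing cells where CCHa2-R is known to act in larvae, spanned a wider range of levels over the 8 libraries than the receptor. Ilp5 had 243 and 576 TPM in male fru+ and 39.1 and 225 TPM in female fru+ cells, against 1.03 and 0 TPM in male fru- and 1.23 and 8.28 TPM in female fru- cells. Ilp3 had 94.7 and 450 TPM in male fru+ and 88.6 and 222 TPM in female fru+ cells, against 0.256 and 0.625 TPM in male fru- and 1.04 and 7.45 TPM in female fru- cells. In male fru+ against male fru- cells Ilp3 and Ilp5 passed the test, Ilp5 with a log2 fold change of 8.04 (SE 0.84, adjusted p = 0.00365 by limma). With no filter on low values both calls were lost (adjusted p = 0.132 for Ilp5 and 0.139 for Ilp3 by limma). The Ilp5 call was also lost without male fru+ replicate 2 (7.42, adjusted p = 0.0755 by limma) and without male fru- replicate 2 (7.53, adjusted p = 0.0633). The Ilp3 call was also lost without male fru+ replicate 2, male fru- replicate 1 or male fru- replicate 2 (adjusted p = 0.0591, 0.0862 and 0.0633). In female fru+ against female fru- cells Ilp3 alone passed, with 5.09 (SE 0.78, adjusted p = 0.0232 by limma), and this call was lost in 8 of 17 alternatives. Among them were the fits with no filter (adjusted p = 0.190), with only the 4 libraries compared (0.128) and with no trend (0.0848), and those without either female fru+ replicate (adjusted p = 0.0679 without replicate 1 and 0.223 without replicate 2), without either male fru- replicate (0.0583 and 0.0590) and without female fru- replicate 1 (0.0710). CCHa2-R had log2 fold changes of -0.01 and 0.59 in the same 2 comparisons, and neither passed the test. The 3 insulin-like peptide genes were higher in replicate 2 than in replicate 1 in the fru+ cells of both sexes. CCHa2 was higher in replicate 1 there, but also in the fru- cells of both sexes, so its order was not particular to fru+ cells.

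**Figure D4:**
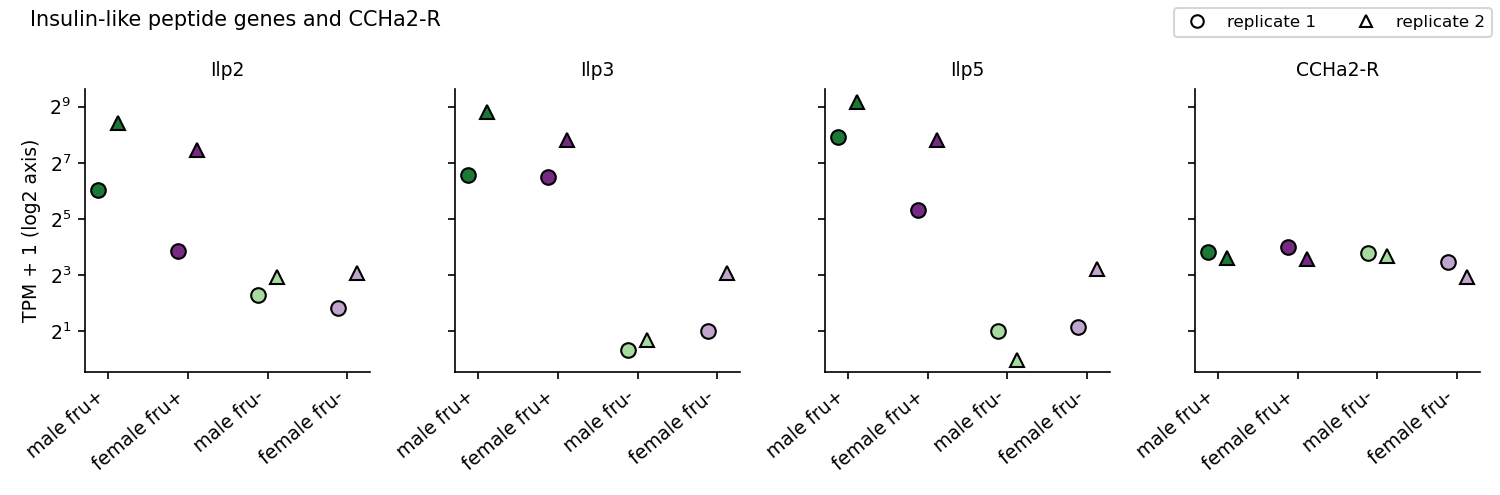
TPM + 1 (vertical axis, log2 scale) of Ilp2, Ilp3, Ilp5 and CCHa2-R in male fru+, female fru+, male fru- and female fru- libraries; circles are replicate 1 and triangles replicate 2. Ilp5 spans 0 to 576 TPM over the 8 libraries, whereas CCHa2-R spans 6.62 to 15.05 TPM.

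Summed markers of glia and of Kenyon cells separated with the sort in males but overlapped in females. The summed level of the 6 glial markers was 520 to 576 TPM in male fru+ and 301 to 529 TPM in female fru+ libraries, against 954 to 1240 TPM in male fru- and 417 to 1572 TPM in female fru- libraries. The 5 Kenyon cell markers summed to 214 to 310 TPM in male fru+ and 160 to 330 TPM in female fru+ libraries, against 594 to 737 TPM in male fru- and 233 to 515 TPM in female fru- libraries. Both sums overlapped between male fru+ and female fru+ libraries, and between female fru+ and female fru- libraries. They were lower in male fru+ than in male fru- libraries. The part of glia and Kenyon cells in the CCHa2 differences of male fru+ from male fru- and from female fru+ cells was not tested. The defining fat body genes Lsp2, Fbp1, Fbp2 and Lsp1beta were under 1 TPM in every library, and the 6 fat body markers summed to 3.71 to 7.15 TPM. In such pools fewer cells that express CCHa2 and less CCHa2 RNA per cell cannot be told apart.

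The genes around the CCHamide loci were inspected because the libraries are not stranded. CG9799 lies 350 nt from CCHa2 on the same strand and was at 7.45 to 13.1 TPM in all libraries, 9.46 and 9.11 TPM in male fru+ cells. CG14374, on the other side, was listed at 0 throughout. CCHa1 faces Npc2b, a gene of a sterol-binding protein on the opposite strand that ends 79 nt away and had 2.59 to 10.3 TPM. In 2 libraries the transcript assembly joined RNA on that strand into a locus reaching 172 nt (female fru+ replicate 1) or 109 nt (female fru- replicate 2) into CCHa1, at 48.0 and 80.7 TPM. These are the 2 libraries with the highest CCHa1 levels, 115.2 and 150.3 TPM, and reads of the 2 strands cannot be told apart there. CG7856 lies within an intron of CCHa2-R on the opposite strand, shares 0 exonic nt with it and reached at most 0.314 TPM.

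Over the 8 libraries, the genes whose pattern was most like that of CCHa2, by Pearson's r of log2(TPM + 1) among 1841 genes with a mean of at least 10 TPM and a range of at least 1, were lncRNA:CR43148 (r = 0.93), CG8916 (0.93), Kr-h1 (0.89), lawc (0.89) and lncRNA:CR44023 (0.89). These are descriptions over libraries that share sessions and sorts. Kr-h1, the zinc finger factor that responds to juvenile hormone, had 19.8 and 15.02 TPM in male fru+ libraries, against 22.9 to 31.2 TPM in the other 6 libraries. lncRNA:CR43148 had 23.4 and 20.1 TPM in male fru+ libraries, against 34.5 to 51.2 TPM elsewhere. Both male fru+ libraries were the lowest for every gene listed for CCHa2. A high r with CCHa2 makes this likely in advance, since r uses the male fru+ level that chose CCHa2. CCHa1 was most like Gdap2, Eip75B and eIF4EHP (r = 0.84, 0.84 and 0.83). Eip75B, a nuclear receptor of the ecdysone response, had 122 and 18.5 TPM in the female fru+ replicates and 20.02 and 94.0 TPM in the female fru- replicates, the same order as CCHa1. CCHa2-R was most like CG34279, lncRNA:CR43825 and Su(dx) (r = 0.92, 0.88 and 0.86), and CCHa1-R like CG6220, CG12912 and lncRNA:CR45180 (r = 0.84, 0.83 and 0.80). No gene appeared in more than 1 of these lists. Between the members, r was 0.54 for CCHa1 with CCHa1-R, 0.02 for CCHa2 with CCHa1 and -0.23 to -0.04 for the other pairs.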

How the data were processed

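RNA of FACS-sorted cells was made into poly(A)-selected, unstranded libraries and read as paired ends of 150 nt. Per the labels and methods, the authors trimmed the reads, aligned them to dm6 with HISAT2, kept unique alignments above a mapping quality of 30, removed duplicates with Picard and ran StringTie 2.1.1 on each library. The deposited tables give TPM per gene, in which reference genes and loci assembled in that library stand in 1 column; only reference rows were used. The authors' FPKM values are scaled per kilobase and library size. The deposited coverage values are the mean read depth per base, from which depth was estimated; at the members this depth was 7.83 to 257, and no counts or counting errors can be given.

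Genes with at least 1 TPM in at least 2 of 8 libraries (10111) were tested on log2(TPM + 1) with limma (3.58.1, R 4.3.3), fitting 4 group means over all 8 libraries, a mean-variance trend and Benjamini-Hochberg adjustment. The pseudocount of 1 understates changes of low genes. The test was run on simulated libraries of the same design. These held independent noise and no session effect, so the run does not show how the test fares with one. Replicate numbers mark sorting sessions, as the methods state, so a fit with the session as a block was an alternative; deviations of same-numbered libraries correlated at -0.04 to 0.25 over the 6 pairs of groups. Other alternatives changed the pseudocount, the filter, the scaling, the unit, the libraries fitted or left out, the trend and the locus definition. Reference genes summed to 956415 to 985750 TPM. Scaling by the median of ratios moved the median log2 fold change of all genes for male fru+ against male fru- cells from -0.14 to -0.01.

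The 4 members and the gene lists were chosen with earlier results of these data known. Named besides the members are their neighbours, the genes most correlated with them (5 for CCHa2, 3 for each other), label checks, Ilp2, Ilp3 and Ilp5, and the gene of smallest p in a list. Gene spans equal those of the Ensembl 115 annotation. The study's own differential expression from read counts was not used here.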

Additional observations from a re-analysis of the deposited data

How the results depend on the processing

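In the 23 tests of CCHamide genes no alternative changed a call. CCHa2 kept its direction in male fru+ against male fru- cells (-2.08 to -1.40 with 1 library left out) and in male fru+ against female fru+ cells (-2.002 to -1.26). In 82 alternatives of its 5 untested values, none moved by more than the groups' combined SD. This was nearly fixed in advance, so it says nothing about robustness. With 2 libraries a group, leaving 1 out cannot pass that SD, and a changed block or trend cannot move the value. The combined SD was chosen after a narrower measure, the SD of the 2 session differences, had been seen to be passed by 21 of the 82. These 21 were 4 for male fru+ against female fru+ cells (-2.002 to -1.26), 11 for the interaction (-1.92 to -1.18) and 6 for males against females (-1.04 to -0.67). Several small, uncalled log2 fold changes turned sign. CCHa2-R in male fru+ against male fru- cells was 0.12 with median-of-ratios scaling, 0.087 with FPKM and -0.11 to 0.085 with 1 library left out. CCHa1 in fru+ against fru- cells over both sexes was 0.091, 0.0082 and -0.35 to 0.27 under the same settings. With 1 library left out, male fru+ against female fru+ gave -0.25 to 0.99 for CCHa1 and -0.28 to 0.14 for CCHa2-R. Female fru+ against female fru- gave -0.56 to 0.18 for CCHa2, -1.12 to 0.12 for CCHa1 and -0.081 to 0.48 for CCHa1-R. The interaction of CCHa1-R was -0.19 to 0.51, and CCHa1 in males against females -0.40 to 0.22. Other uncalled values kept their sign and moved widely with 1 library left out: CCHa1-R was 0.0081 to 0.70 and CCHa1 0.12 to 0.71 in male fru+ against male fru-, and CCHa1-R -0.77 to -0.071, CCHa1 -1.05 to -0.045 and CCHa2-R 0.27 to 0.81 in male fru- against female fru-. CCHa1-R in male fru+ against female fru+ was -0.41 to -0.11, and CCHa2-R in female fru+ against female fru- 0.32 to 0.86. The cause was not tested. CCHa1-R has no value with genes above a mean of 10 TPM alone, its mean being 7.33.

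The session block, whose pairing comes from the sorting sessions, changed no call of a CCHamide gene; it called 34 genes in female fru+ against female fru- cells, against 66 without it. Counts of genes called over all alternatives spanned 5 to 182 in male fru+ against male fru- (52 as reported), 5 to 19 in male fru+ against female fru+ (9), 0 to 236 in female fru+ against female fru- (66), 6 to 18 in male fru- against female fru- (11), 0 to 2 in the interaction (0), 65 to 592 over both sexes for fru status (535) and 9 to 32 for males against females (23). Precursor genes called higher spanned 1 to 13 in male fru+ against male fru- cells (10 as reported) and 0 to 10 in female fru+ against female fru- cells (8). Over all 7 comparisons and both directions, 1 other receptor gene and 1 processing gene were called, each in 1 alternative of 1 comparison, without female fru+ replicate 2 and without female fru- replicate 2. The percentages of genes called are therefore only a rough background. With 2 libraries a group, intervals of the CCHamide genes were wide.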

Other observations

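CG10936, the gene left of CCHa1-R at a distance of 7710 nt, had 3.49 to 3.79 TPM in the 4 libraries of session 1 and 9.31 to 11.2 TPM in the 4 libraries of session 2. Its values separate by session in all 4 groups, whereas those of CCHa1-R, at 6.04 to 9.76 TPM in session 1 and 4.02 to 9.36 TPM in session 2, overlap. CCHa2 was higher in session 1 than in session 2 in all 4 groups, and so was CCHa2-R. These session values were not tested. The shares of all genes that separate by session, or that keep the same order of sessions in every group, were not computed. Neither pattern is therefore shown to be rare.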
